A study of Xenopus laevis with 16 samples.

Results

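Gene expression in Xenopus laevis animal caps driven by Ptf1a was set against that in caps driven by Neurog2, both after 25 h of dexamethasone. The comparison was defined by the labels alone and takes the 2 Ptf1a libraries and the 2 Neurog2 libraries of 25 h, 4 of the 16 libraries of the series, and it runs over 30384 tested genes of 45038 listed. Animal caps are explants of the embryo's prospective ectoderm, which become epidermis when left alone. The mRNA was put into the animal pole of both cells of 2-cell embryos, at 20 pg. It encoded Ptf1a fused to the hormone-binding domain of the glucocorticoid receptor (GR) in 1 group and Neurog2 fused to it in the other, and the GR domain keeps a fusion protein inactive until dexamethasone is added. Caps with a Ptf1a-GR carrying the changes W224A and W242A (the mutant) and control caps, all of 25 h, are quoted beside some genes. The labels do not make plain whether control caps had received mRNA. The same Ptf1a and Neurog2 groups at 6 h served to ask whether a difference was already there.

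Ptf1a and Neurog2 are transcription factors of the bHLH family that start neuronal differentiation. In the mouse spinal cord, cerebellum and retina Ptf1a directs precursors to inhibitory fates, whose neurons release GABA or glycine, and it acts in a complex with an E protein and Rbpj. Neurog2 drives cell cycle exit and neuronal differentiation and is linked to excitatory fates, whose neurons release glutamate. In the mouse dorsal spinal cord the homeobox factors Tlx1 and Tlx3 mark and specify glutamatergic cells, while Pax2, Lhx1 and Lhx5 mark GABAergic ones.

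Total counts of the 4 libraries were 62381440 and 105328483 in the Ptf1a caps and 65737611 and 48550488 in the Neurog2 caps. Levels below are CPM, counts scaled to each library's total after TMM, always in the order replicate 1, replicate 2. Replicates correlated at 0.970 (Ptf1a) and 0.962 (Neurog2) in log2 CPM across genes, which are not independent replicates, and their counts differed beyond counting error. The Neurog2 libraries stood apart from each other in neuronal genes. The median ratio of replicate 2 to replicate 1 was 3.44 over pan-neuronal genes in the Neurog2 caps, against 0.936 in the Ptf1a caps, so results on neuronal genes are also given without single libraries. Ionocyte genes were lower in replicate 2 of both groups, with median ratios of 0.441 (Ptf1a) and 0.574 (Neurog2). Both groups held epidermal and neuronal transcripts. The larval keratin krt5.7.S stood at 23143 and 32504 CPM in Ptf1a caps and 45149 and 43470 CPM in Neurog2 caps, and the neuronal tubulin tubb2b.S at 292 and 272 CPM against 241.9 and 815 CPM, where the control caps held 0.376 and 0.558 CPM. The mesodermal factor myod1.L and the endodermal factor sox17a.S stayed below 1 CPM in all of these libraries, though sox17a.S was called lower, at 0.0307 and 0 CPM in Ptf1a caps and 0.527 and 0.143 CPM in Neurog2 caps (edgeR adjusted p = 0.0358). Another gene of the endoderm markers, a2m.S, was abundant, at 626 and 849 CPM in Ptf1a caps, 314 and 353 CPM in Neurog2 caps and 96.0 and 110 CPM in the control caps, a difference between Ptf1a and Neurog2 caps that did not pass the test (edgeR adjusted p = 0.115). The muscle actin actc1.L reached 2.27 and 3.99 CPM in Ptf1a caps and 8.21 and 32.3 CPM in Neurog2 caps. In such bulk RNA, fewer cells of a type and less RNA per cell cannot be told apart.

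Transcripts of the injected factors were low by 25 h. At 6 h ptf1a.L had stood at 184 and 181 CPM in Ptf1a caps, and neurog2.L at 158 and 192 CPM in Neurog2 caps. At 25 h ptf1a.L stood at 2.37 and 3.86 CPM in Ptf1a caps and 0.376 and 0.0952 CPM in Neurog2 caps (log2 fold change 3.66 ± 0.6 SE, edgeR adjusted p = 0.00345). Transcripts of neurog2.L were at 5.27 and 6.02 CPM in Ptf1a caps and 12.197 and 9.47 CPM in Neurog2 caps, a difference that did not pass the test (log2 fold change -0.94 ± 0.396, edgeR adjusted p = 0.168), and at 0.0376 and 0.319 CPM in the control caps. Its homeolog neurog2.S stood at 6.91 and 4.84 CPM with Ptf1a and 0.0376 and 1.29 CPM with Neurog2 (log2 fold change 3.16 ± 1.30, edgeR adjusted p = 0.159). The neurog2.S value was 2.19 without Neurog2 replicate 1 and 7.22 without Neurog2 replicate 2, where it was called (adjusted p = 0.0445). With both copies summed the neurog2 difference was 0.02. Counts do not separate injected mRNA from the embryo's own.

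Over all genes 1559 were higher and 1273 lower in Ptf1a than in Neurog2 caps, called at an edgeR adjusted p under 0.05, which is 5.13% and 4.19% of those tested. In each called gene both Ptf1a libraries lay on the same side of both Neurog2 libraries. With 2 against 2 libraries a call nearly requires this, so it is not separate support. Large differences lay mainly on the Ptf1a side, with 294 called genes above 3 on the log2 scale and 93 below -3. The median log2 fold change of all tested genes was 0.01. The split depended on the scaling. With DESeq2 size factors 1427 genes were higher and 1472 lower, so that 49.2% of called genes were higher. That part was 55.0% with TMM and 43.1% when only the 8 libraries of 25 h were fitted. Without Ptf1a replicate 1 the counts were 1072 higher and 458 lower, without Ptf1a replicate 2 they were 991 and 607, without Neurog2 replicate 1 they were 554 and 492, and without Neurog2 replicate 2 they were 802 and 798. Counts of list members without a library, given below, stand against these smaller totals and not against 5.13% and 4.19%. The genome of this frog holds many genes as an L and an S homeolog, whose near-identical stretches can exchange reads in the counting. Of 7997 pairs with both copies tested, 214 were higher in both copies, 94 lower in both and 8 called in opposite directions.

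The genes with the largest differences at a mean level above 1 CPM included transcription factors, receptors and adhesion proteins. On the Ptf1a side, sox10.L (chromosome 4L, 114982869 to 114991299 in build 9.1), a neural crest and glial factor, stood at 40.6 and 39.3 CPM against 0 and 0.0476 CPM in Neurog2 caps, a pooled count ratio of 1896 (exact 95% interval 340.0 to 74901). The homeobox gene dmbx1.L stood at 14.8 and 18.2 CPM against 0 and 0.0476 CPM, a ratio of 799 (143 to 31590.3). For both genes the Neurog2 libraries held 2 counts in all, so the ratio is known only within a wide interval. Counts were mostly even, and intervals and bounds here take 2 counts as 1 fragment. The orphan nuclear receptor nr2f1.L stood at 14.1 and 15.5 CPM against 0.151 and 0.0476 CPM, and the ectodysplasin receptor edar.L at 11.3 and 13.9 CPM against 0.113 and 0.0952 CPM. Their log2 fold changes were 7.16 ± 0.778 and 6.89 ± 0.861 (edgeR adjusted p = 0.000549 and 0.000917). Both genes were at 0.113 CPM or below in both control libraries.

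On the Neurog2 side stood tlx3.S, the vesicular transporters slc17a7.S and slc18a3.L, and genes of the neuronal surface. The Nogo receptor relative rtn4rl1.L stood at 0.276 and 0.23 CPM in Ptf1a caps and 4.97 and 26.6 CPM in Neurog2 caps, and pex5l.S, a regulator of HCN channel traffic in mammals, at 0.43 and 0.219 CPM against 5.65 and 16.1 CPM. The log2 fold changes were -5.95 ± 1.05 and -5.07 ± 0.645 (edgeR adjusted p = 0.00476 and 0.00099). Netrin G2, ntng2.L, was lower too, at 0.399 and 0.351 CPM against 2.03 and 20.8 CPM (log2 fold change -4.92 ± 0.871, edgeR adjusted p = 0.00496). Neurog2 replicate 2 exceeded replicate 1 in each of these genes, and the groups did not overlap. Without Ptf1a replicate 2 the calls of rtn4rl1.L and ntng2.L were lost, at adjusted p = 0.0511 and 0.0501.

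**Figure D1:**
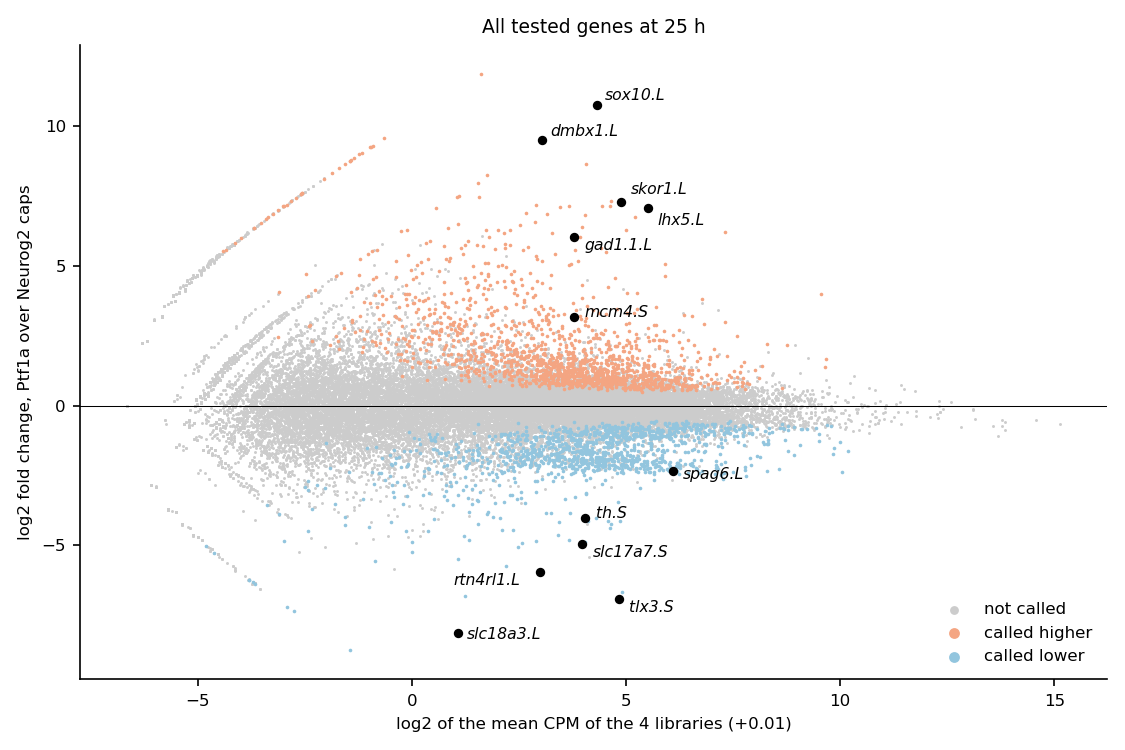
Each point is a tested gene, with the log2 of its mean CPM over the 4 libraries on the x axis and the log2 fold change of Ptf1a over Neurog2 caps on the y axis, and called genes in colour. The cloud is centred near 0 (median 0.01) and reaches farther up than down, and the diagonal lines at the left edge are genes with 0 counts in one of the groups.

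Genes of inhibitory transmission were higher in the Ptf1a caps. The list of inhibitory transmitter genes has 11 symbols, of which 9 were found as 16 copies and 15 passed the filter on low counts. Of the 15, 5 were called higher and none lower, 33.3% against a background of 5.13%, and 10 had a log2 fold change above 0 (median 2.13). By DESeq2's Wald test 7 were higher and 1 lower. The glutamate decarboxylase gad1.1.L (chromosome 9_10L, 65208328 to 65232654), which makes GABA, stood at 37.7 and 16.7 CPM in Ptf1a caps, 0.188 and 0.666 CPM in Neurog2 caps, 0.483 and 0.262 CPM in the mutant caps and 0.0376 and 0 CPM in the control caps. Both Ptf1a libraries were far above all the others (log2 fold change 6.01 ± 0.86, edgeR adjusted p = 0.00178). Its homeolog gad1.1.S stood at 27.7 and 15.1 CPM against 1.88 and 2.57 CPM (3.26 ± 0.675, edgeR adjusted p = 0.011). The glycine transporter slc6a5.L, which marks glycinergic neurons, was at 9.32 and 3.74 CPM against 0.226 and 0.5 CPM (4.17 ± 0.93, edgeR adjusted p = 0.016). For these genes Ptf1a replicate 1 lay above replicate 2, and no Ptf1a library overlapped a Neurog2 one.

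The GABA transporter slc6a13.L was at 47 and 57.9 CPM in Ptf1a caps and 5.46 and 18.3 CPM in Neurog2 caps (2.15 ± 0.507, edgeR adjusted p = 0.021). The GABA transaminase abat.L, which breaks GABA down, was at 11 and 9.23 CPM against 1.49 and 1.14 CPM (2.93 ± 0.298, edgeR adjusted p = 0.000369). Its homeolog abat.S was not called, at 1.63 and 1.18 CPM against 1.96 and 1.52 CPM (-0.31, edgeR adjusted p = 0.809). The calls of gad1.1.L and abat.L held without each of the 4 libraries. Those of gad1.1.S, slc6a5.L and slc6a13.L were lost without Ptf1a replicate 1 (adjusted p = 0.0744, 0.0957 and 0.0512) and without Neurog2 replicate 1 (0.0998, 0.138 and 0.116). Without Neurog2 replicate 2 gad1.1.S and slc6a5.L were lost (0.0545 and 0.0578), and without Ptf1a replicate 2 slc6a13.L was (0.0965). The list counts in these fits were 2 without Ptf1a replicate 1, 4 without Ptf1a replicate 2, 2 without Neurog2 replicate 1 and 3 without Neurog2 replicate 2.

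The vesicular GABA and glycine transporter was higher in every Ptf1a library but not called. Its copy slc32a1.L stood at 1.38 and 1.32 CPM in Ptf1a caps and 0.113 and 0.0476 CPM in Neurog2 caps (4.02 ± 1.32, edgeR adjusted p = 0.0891), and slc32a1.S at 5.07 and 2.96 CPM against 0.64 and 1.19 CPM (2.13 ± 1.18, edgeR adjusted p = 0.313). Both copies were at 0 in the control caps. Another decarboxylase gene, gad1.2.L, lay on the other side without passing the test, at 36.8 and 26.2 CPM with Ptf1a, 117 and 49.2 CPM with Neurog2 and 218 and 135 CPM in the control caps (-1.40 ± 0.53, edgeR adjusted p = 0.125). The decarboxylase gad2.L was low in both, at 0.845 and 0.362 CPM against 0.941 and 0.666 CPM.

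**Figure D2:**
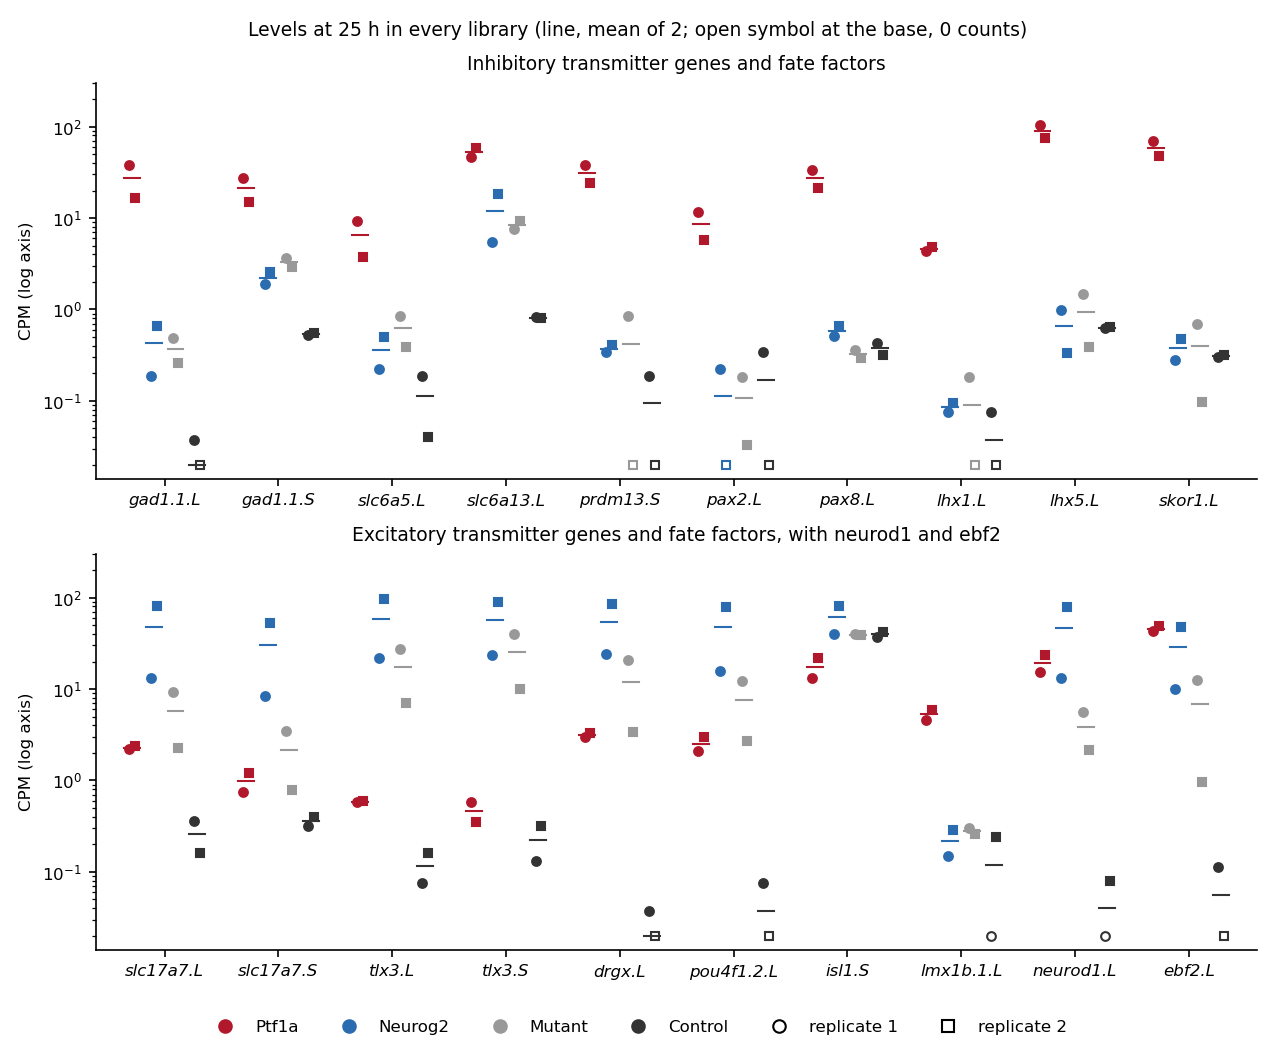
CPM on a log axis of 10 inhibitory (top) and 10 excitatory or shared (bottom) genes in every library of 25 h, with a circle for replicate 1, a square for replicate 2 and a line for the mean of the 2 libraries. The 10 inhibitory genes were selected and are all called higher, as gad1.1.L is at 37.7 and 16.7 CPM in Ptf1a caps. Members of their lists that ran the other way, such as gad1.2.L and gata2.L, are not shown. The genes slc17a7, tlx3, drgx.L and pou4f1.2.L stand higher in both Neurog2 than in both Ptf1a libraries, Neurog2 replicate 2 above replicate 1.

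Inhibitory fate factors were the neuronal list with the largest share called. The list has 30 symbols, of which 29 were found as 57 copies. Of the 53 copies tested, 19 from 11 genes were higher in Ptf1a caps and none lower. That is 35.8% higher, against 5.13% higher and 4.19% lower over all genes. The median log2 fold change was 1.26. Called or not, 39 of the 53 had a log2 fold change above 0. The lower count was 1 with the 4 libraries alone, 3 with the 8 libraries of 25 h and 3 by DESeq2's Wald test. The corepressor skor1.L (chromosome 3L, 108877395 to 108899986), a relative of the Ski protein, stood at 69.2 and 47.9 CPM in Ptf1a caps and 0.282 and 0.476 CPM in Neurog2 caps (7.28 ± 0.695, edgeR adjusted p = 0.000306). The LIM homeobox gene lhx5.L (chromosome 1L, 145214306 to 145236573) stood at 105 and 75.2 CPM against 0.979 and 0.333 CPM (7.06 ± 0.565, edgeR adjusted p = 0.000139), and lhx5.S at 12.09 and 10.5 CPM against 0.0753 and 0.19 CPM (6.45 ± 0.46, edgeR adjusted p = 0.000127). Neurog2 caps held about as much of lhx5.L as the control caps, which were at 0.62 and 0.637 CPM.

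The paired-box gene pax8.L was at 33.6 and 21.6 CPM in Ptf1a caps and 0.508 and 0.666 CPM in Neurog2 caps (5.55 ± 0.746, edgeR adjusted p = 0.00127), and pax2.L at 11.7 and 5.72 CPM against 0.226 and 0 CPM (6.18 ± 1.33, edgeR adjusted p = 0.0133). Both Pax genes are expressed in spinal inhibitory neurons. The zinc finger gene prdm13.S (chromosome 5S, 65016308 to 65022315), a target of Ptf1a in mouse that represses excitatory fate genes, was at 38.1 and 24.2 CPM against 0.339 and 0.405 CPM (6.39 ± 1.06, edgeR adjusted p = 0.00368). The LIM gene lhx1.L stood at 4.39 and 4.85 CPM against 0.0753 and 0.0952 CPM (5.74 ± 1.04, edgeR adjusted p = 0.00575), and the retinal and spinal factor tfap2b.L at 24.7 and 40.3 CPM against 0.471 and 0.0952 CPM (6.80 ± 1.14, edgeR adjusted p = 0.00471). In each of these genes both Ptf1a libraries lay above both Neurog2 libraries.

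Calls of skor1, lhx5, pax8, dmbx1.L and tfap2b.L held without each of the 4 libraries. Without Neurog2 replicate 1 those of prdm13.S and lhx1.L were lost (adjusted p = 0.0564 and 0.0632), and pax2.L was lost without Ptf1a replicate 1 and without Neurog2 replicate 2 (0.0608 and 0.0593). The number of list members called was 15 without either Ptf1a library, 11 without Neurog2 replicate 1 and 13 without Neurog2 replicate 2. Several inhibitory fate factors did not pass the test. The bHLH gene tal1.L stood at 2.1 and 1.21 CPM in Ptf1a caps and 0.0376 and 0.333 CPM in Neurog2 caps (3.18 ± 1.24, edgeR adjusted p = 0.141), and the homeobox gene lbx1.S at 1.6 and 0.801 CPM against 0.0376 and 0 CPM (adjusted p = 0.0521 by edgeR). The zinc finger gene gata2.L, a factor of inhibitory neurons that epidermis also expresses, stood at 64.9 and 59.2 CPM with Ptf1a, 180 and 111 CPM with Neurog2 and 231 and 184 CPM in the control caps (-1.23 ± 0.875, edgeR adjusted p = 0.438).

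Excitatory genes were split. Of 12 tested glutamate transmitter copies 2 were lower and 1 higher in the Ptf1a caps (16.7% and 8.33%). Of 41 tested excitatory fate copies 6 were lower (14.6% against a background of 4.19%) and 4 higher (9.76% against 5.13%). Median log2 fold changes of these lists, in that order, were 0.08 and 0.19. The homeobox genes tlx3.L and tlx3.S had the largest deficits. The copy tlx3.S (chromosome 3S, 113467985 to 113476499) stood at 0.584 and 0.351 CPM in Ptf1a caps, 23.8 and 89.4 CPM in Neurog2 caps, 40.2 and 10 CPM in the mutant caps and 0.132 and 0.319 CPM in the control caps (-6.93 ± 0.88, edgeR adjusted p = 0.00101). The copy tlx3.L stood at 0.584 and 0.592 CPM against 21.6 and 96.5 CPM (-6.65 ± 0.884, edgeR adjusted p = 0.00126). Both Ptf1a libraries lay below 1 CPM in both copies, and both Neurog2 libraries were far above the Ptf1a and control libraries. Both calls held without each of the 4 libraries.

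The vesicular glutamate transporter slc17a7.L (chromosome 7L, 107956720 to 108007689), which loads glutamate into vesicles, was at 2.18 and 2.36 CPM in Ptf1a caps and 13.1 and 81.2 CPM in Neurog2 caps (-4.37 ± 0.958, edgeR adjusted p = 0.0149). Its homeolog slc17a7.S was at 0.753 and 1.21 CPM against 8.32 and 52.7 CPM (-4.95 ± 0.926, edgeR adjusted p = 0.00664). Both copies of drgx, a homeobox gene of dorsal spinal and sensory neurons, were lower, and drgx.S was at 1.17 and 1.14 CPM against 6.61 and 26.1 CPM (-3.82 ± 0.666, edgeR adjusted p = 0.00457). The sensory POU factor pou4f1.2.L was at 2.09 and 2.95 CPM against 15.6 and 79.5 CPM (-4.23 ± 0.997, edgeR adjusted p = 0.0211), and the LIM gene isl1.S at 13.2 and 21.7 CPM against 40.3 and 81 CPM (-1.80 ± 0.421, edgeR adjusted p = 0.0203). All of these were several times higher in Neurog2 replicate 2 than in replicate 1, except isl1.S, whose control level was 37.2 and 42.3 CPM.

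Without Ptf1a replicate 1 and without Neurog2 replicate 2 the calls of slc17a7.L (adjusted p = 0.104 and 0.133), slc17a7.S (0.0659 and 0.0537), pou4f1.2.L (0.143 and 0.207) and isl1.S (0.148 and 0.165) were lost. Without Ptf1a replicate 2 slc17a7.L and pou4f1.2.L were lost as well (0.0912 and 0.1), while drgx.S was called in all of these fits. The call of drgx.L was lost without Ptf1a replicate 1, without Ptf1a replicate 2 and without Neurog2 replicate 2 (adjusted p = 0.085, 0.0756 and 0.0737). The excitatory fate list had 3 lower members without Ptf1a replicate 1, 4 without Ptf1a replicate 2, 6 without Neurog2 replicate 1 and 3 without Neurog2 replicate 2, and the glutamate list had 0, 1, 2 and 0.

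Some genes of these lists ran the other way. The LIM homeobox gene lmx1b.1.S, expressed in dorsal spinal excitatory and in serotonergic neurons of mouse, was at 3.15 and 3.5 CPM in Ptf1a caps and 0.301 and 0.452 CPM in Neurog2 caps (3.14 ± 0.425, edgeR adjusted p = 0.00131), and lmx1b.1.L at 4.58 and 5.95 CPM against 0.151 and 0.286 CPM (4.60 ± 0.887, edgeR adjusted p = 0.00786). The other higher members were lmx1a.L and barhl2.S, both at 3.78 CPM or below. The glutamate uptake transporter slc1a3.L, a gene of glia, stood at 94.8 and 140 CPM against 2.67 and 4.38 CPM (5.06 ± 0.956, edgeR adjusted p = 0.00724). The control caps held 0.676 and 1.12 CPM of slc1a3.L. Its homeolog slc1a3.S had a log2 fold change of 0.25 and was not called. Without Neurog2 replicate 1 the calls of lmx1b.1.L and slc1a3.L were lost (0.0829 and 0.0916), and without Neurog2 replicate 2 that of slc1a3.L (0.0537). The calls of lmx1a.L and barhl2.S were lost in each of the 4 fits without a library (0.0675 to 0.231). The homeobox gene tlx1.L (6.11 and 16.4 CPM with Ptf1a, 16.6 and 53.8 CPM with Neurog2) and the other sensory POU gene pou4f1.L (10.9 and 16.2 CPM against 4.33 and 11.5 CPM) did not pass the test, at edgeR adjusted p = 0.188 and 0.578.

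In the fit of all 16 libraries, genes of the bHLH cascade and general neuronal genes were called at about the share of all genes or less. Fits without a library called fewer genes in all, so their list counts cannot be set against the shares given here. Of 53 tested copies of the proneural cascade 3 were higher and 2 lower (5.66% and 3.77%, against 5.13% and 4.19% of all genes). Without Ptf1a replicate 1, Ptf1a replicate 2, Neurog2 replicate 1 and Neurog2 replicate 2 the higher count was 2, 1, 1 and 3, and the lower 2, 1, 2 and 1. The differentiation gene neurod1.L stood at 15.3 and 23.4 CPM in Ptf1a caps and 13.4 and 79.7 CPM in Neurog2 caps, neurod4.L at 17.8 and 18.6 CPM against 23.1 and 65.1 CPM, and ebf2.L at 42.7 and 48.5 CPM against 9.98 and 48 CPM. None of the 3 was called (edgeR adjusted p = 0.334, 0.546 and 0.747), and each was at 0.239 CPM or below in the control caps. The interval between the Neurog2 libraries enclosed both Ptf1a libraries for neurod1.L. The called members were ascl2.S, hes6.1.S and olig3.S on the higher side and both olig2 copies on the lower. The bHLH gene olig3.S of dorsal progenitors stood at 10.3 and 7.35 CPM against 0.0753 and 0.286 CPM (5.63 ± 0.704, edgeR adjusted p = 0.0012). Its relative olig2.S, of motor neuron and oligodendrocyte progenitors, ran the opposite way at 0.584 and 0.417 CPM against 4.89 and 23.8 CPM (-4.84 ± 0.809, edgeR adjusted p = 0.00367). The calls of olig3.S and olig2.S held without each of the 4 libraries.

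Of 117 tested pan-neuronal copies 3 were higher and 6 lower (2.56% and 5.13%, against 5.13% and 4.19% of all genes). The median log2 fold change of the 117 copies was -0.39, and 44 of them had a value above 0. DESeq2's Wald test called 15 of the list lower and 6 higher. It called more genes in all, 2377 higher and 2607 lower. The median level of the 117 copies was 7.34 and 5.94 CPM in Ptf1a caps and 3.69 and 10.8 CPM in Neurog2 caps. In the control caps it was 0.319 and 0.358 CPM. The lower count was 12 without Neurog2 replicate 1, 3 without Neurog2 replicate 2, 4 without Ptf1a replicate 1 and 3 without Ptf1a replicate 2. The higher count was 1 without Neurog2 replicate 1 and 6 without Neurog2 replicate 2. Members called in every fit without a library lay in both directions. The synaptic adhesion gene nrxn3.L was at 10.6 and 9.56 CPM with Ptf1a and 0.602 and 0.524 CPM with Neurog2 (4.16 ± 0.381, edgeR adjusted p = 0.000248). The synaptic vesicle GTPase gene rab3a.S was at 24.5 and 32.5 CPM against 100 and 136 CPM (-2.05 ± 0.309, edgeR adjusted p = 0.00218), and the prohormone convertase pcsk1.S, which also stands in the list of secretory cells, at 1.51 and 1.91 CPM against 23.4 and 25.1 CPM (-3.83 ± 0.473, edgeR adjusted p = 0.00085). These 3 calls held without each of the 4 libraries. The intermediate filament gene ina.L had 0 counts in the Neurog2 caps and 1.04 and 0.987 CPM in Ptf1a caps, at least 16.03-fold higher, and lost its call without Neurog2 replicate 1 and without Neurog2 replicate 2 (0.0786 and 0.0543).

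In the fit of all 16 libraries, receptors and channels were also called at about the share of all genes or less. Of 66 tested neurotransmitter receptor copies 3 were higher and 3 lower (4.55% each, against 5.13% and 4.19% of all genes). Of 108 ion channel copies 1 was higher and 5 lower (0.926% and 4.63%). The GABA-A receptor subunit gabra2.S stood at 1.41 and 2.04 CPM in Ptf1a caps and 0.0753 and 0.143 CPM in Neurog2 caps (3.99 ± 0.728, edgeR adjusted p = 0.00597), and its call was lost without Neurog2 replicate 1 (0.0704). The glycine receptor subunit glrb.L stood at 1.64 and 0.866 CPM against 0.301 and 0.238 CPM (2.21 ± 0.622, edgeR adjusted p = 0.0448), a call lost in all 4 fits without a library (0.0551 to 0.212). Gephyrin, gphn.L, the scaffold of glycine and GABA-A receptors, was lower in the Ptf1a caps, at 13 and 15.3 CPM against 21.1 and 52.9 CPM (-1.39 ± 0.357, edgeR adjusted p = 0.0306). The HCN pacemaker channel hcn2.L was lower as well, at 2.64 and 4.23 CPM against 7.49 and 16.3 CPM (-1.79 ± 0.351, edgeR adjusted p = 0.00855). Both were highest in Neurog2 replicate 2, without which gphn.L and hcn2.L were not called (0.312 and 0.0732). The calls of gphn.L and hcn2.L were also lost without Ptf1a replicate 1 (0.17 and 0.0829), and that of gphn.L without Ptf1a replicate 2 (0.097). Without Ptf1a replicate 1, Ptf1a replicate 2, Neurog2 replicate 1 and Neurog2 replicate 2 the receptor list had 1, 2, 0 and 2 higher and 0, 0, 2 and 1 lower members, and the channel list 0, 1, 0 and 1 higher and 0, 2, 6 and 1 lower.

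Other classes of neuron differed by single genes. The vesicular acetylcholine transporter slc18a3.L held 0.0307 and 0 CPM in Ptf1a caps and 2.33 and 6.05 CPM in Neurog2 caps, a pooled ratio 311-fold lower with Ptf1a (exact 95% interval 55.1 to 12328), while its call (edgeR adjusted p = 0.0152) was lost without Ptf1a replicate 1 and Ptf1a replicate 2 (0.0592 and 0.0983). Tyrosine hydroxylase th.S, the enzyme of dopamine synthesis, stood at 1.92 and 1.93 CPM with Ptf1a and 21 and 41.2 CPM with Neurog2 (-4.01 ± 0.439, edgeR adjusted p = 0.000549). Somatostatin ran the opposite way. Its gene sst.L stood at 7.03 and 8.11 CPM against 0.414 and 0.286 CPM (4.42 ± 0.731, edgeR adjusted p = 0.00351), and sst.S at 1.74 and 11.6 CPM against 0.0376 and 0 CPM, a ratio of 356 (63.7 to 14088). The calls of th.S and both sst copies held without each of the 4 libraries.

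The retinoic acid synthase aldh1a2.L, a gene of motor neuron columns and mesoderm, stood at 21.9 and 37.5 CPM in Ptf1a caps and 0.696 and 0.19 CPM in Neurog2 caps (6.03 ± 0.805, edgeR adjusted p = 0.00127). The eye and forebrain factor six3.L stood at 5.82 and 7.28 CPM against 0.113 and 0.0476 CPM (6.29 ± 0.892, edgeR adjusted p = 0.0017). Kirrel2, an adhesion protein whose gene is a direct target of Ptf1a in mouse, was among the most different genes of all, with kirrel2.L at 51.1 and 47.6 CPM against 0.489 and 0.19 CPM (7.14 ± 0.535, edgeR adjusted p = 0.000127) and kirrel2.S at 62.7 and 27.6 CPM against 0.565 and 1.48 CPM (5.48 ± 0.755, edgeR adjusted p = 0.00152). All 4 calls held without each of the 4 libraries. Over all genes 5.13% were higher and 4.19% lower. Of 22 motor and cholinergic copies 3 were higher and 3 lower (13.6% each), of 38 monoamine and peptide copies 3 and 2 (7.89% and 5.26%), and of 41 sensory neuron copies 3 and 2 (7.32% and 4.88%). Of 33 retinal copies 4 were higher and 2 lower (12.12% and 6.06%), and of 20 pancreas and slit-diaphragm copies 2 and 1 (10% and 5%). The pancreatic nuclear receptor gene nr5a2.L was the lower one of the last list, at 2.15 and 2.4 CPM against 9.26 and 64.9 CPM (-4.02 ± 0.964, edgeR adjusted p = 0.0226), and was not called without Ptf1a replicate 1, Ptf1a replicate 2 or Neurog2 replicate 2 (0.13, 0.117 and 0.236). Across the fits without a library the higher counts were 1 to 2 (motor), 2 to 3 (monoamine and peptide), 0 to 3 (sensory), 4 to 5 (retinal) and 2 (pancreas), and the lower counts 0 to 2, 1 to 2, 0 to 2, 0 to 1 and 0 to 1. The sensory list had 0 higher members without Ptf1a replicate 2 and without Neurog2 replicate 1.

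Of 82 tested neural progenitor copies 26, from 20 genes, were higher in the Ptf1a caps and none lower. That is 31.7% higher, against 5.13% higher and 4.19% lower over all genes. The lower count was 2 with the 4 libraries alone and with the 8 libraries of 25 h, and 1 by DESeq2's Wald test. The median log2 fold change of the 82 copies was 1.63, or 1.52 with genes at 0 in a group set to their bound. Their median level was 3.24 and 3.48 CPM with Ptf1a and 0.546 and 0.524 CPM with Neurog2, and the control caps held 0.31 and 0.398 CPM. The POU gene pou3f2.S stood at 1.83 and 3.39 CPM against 0.0376 and 0.0476 CPM, a ratio of 65.1 (exact 95% interval 17.8 to 541; edgeR adjusted p = 0.002), and the zinc finger gene zic2.S at 2.7 and 1.49 CPM against 0.113 and 0 CPM, a ratio of 31.7 (10.6 to 155; edgeR adjusted p = 0.00457). The paired-box gene pax6.L stood at 1.51 and 2.08 CPM against 0 and 0.0476 CPM, a ratio of 87.6 (15.5 to 3486), and lost its call without Ptf1a replicate 2 and Neurog2 replicate 1 (0.055 and 0.135). The list had 17 members called without Ptf1a replicate 1, 18 without Ptf1a replicate 2, 13 without Neurog2 replicate 1 and 13 without Neurog2 replicate 2.

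Notch pathway genes, which keep progenitors undifferentiated, were higher in 11 of 60 copies and lower in 1 (18.3% and 1.67%, against 5.13% and 4.19% of all genes). The Notch target hey1.L stood at 36.2 and 39.2 CPM in Ptf1a caps and 6.61 and 6.36 CPM in Neurog2 caps (2.54 ± 0.408, edgeR adjusted p = 0.00309), and the feedback inhibitor nrarp.L at 12.6 and 12.35 CPM against 2.3 and 3.45 CPM (2.12 ± 0.422, edgeR adjusted p = 0.00917). The ubiquitin ligase mib2.S, which acts on Notch ligands, was the lower one, at 1.69 and 1.2 CPM against 4.25 and 4.38 CPM (-1.59 ± 0.255, edgeR adjusted p = 0.00315). Without Neurog2 replicate 1 the higher count was 3 and nrarp.L was not called (0.0951). It was 7 without Ptf1a replicate 1, 5 without Ptf1a replicate 2 and 6 without Neurog2 replicate 2.

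Cell cycle genes were higher in 41 of 116 tested copies, from 31 genes, and lower in 1. These are 35.3% and 0.862%, against 5.13% and 4.19% of all genes. The median log2 fold change was 0.79, and 99 of the 116 had a log2 fold change above 0. Among them were genes of DNA replication. The helicase subunit mcm4.S stood at 25.1 and 24.1 CPM in Ptf1a caps and 4.14 and 1.36 CPM in Neurog2 caps (3.15 ± 0.419, edgeR adjusted p = 0.00124), mcm2.S at 31.6 and 35.8 CPM against 6.02 and 5.33 CPM (2.57 ± 0.273, edgeR adjusted p = 0.000475), and the S-phase regulator e2f1.S at 7.22 and 7.41 CPM against 1.19 and 1.17 CPM (2.64 ± 0.425, edgeR adjusted p = 0.00318). Their control levels were 0.637 to 6.28 CPM. The cell cycle inhibitor cdkn1a.S was the lower member, at 5.58 and 3.68 CPM against 20.6 and 12 CPM (-1.82 ± 0.353, edgeR adjusted p = 0.0081), a call lost without Ptf1a replicate 2 and Neurog2 replicate 1 (0.0691 and 0.0851). Without Neurog2 replicate 2 the list had 22 higher members, without Ptf1a replicate 2 it had 28, and without either of the other two libraries 35.

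**Figure D3:**
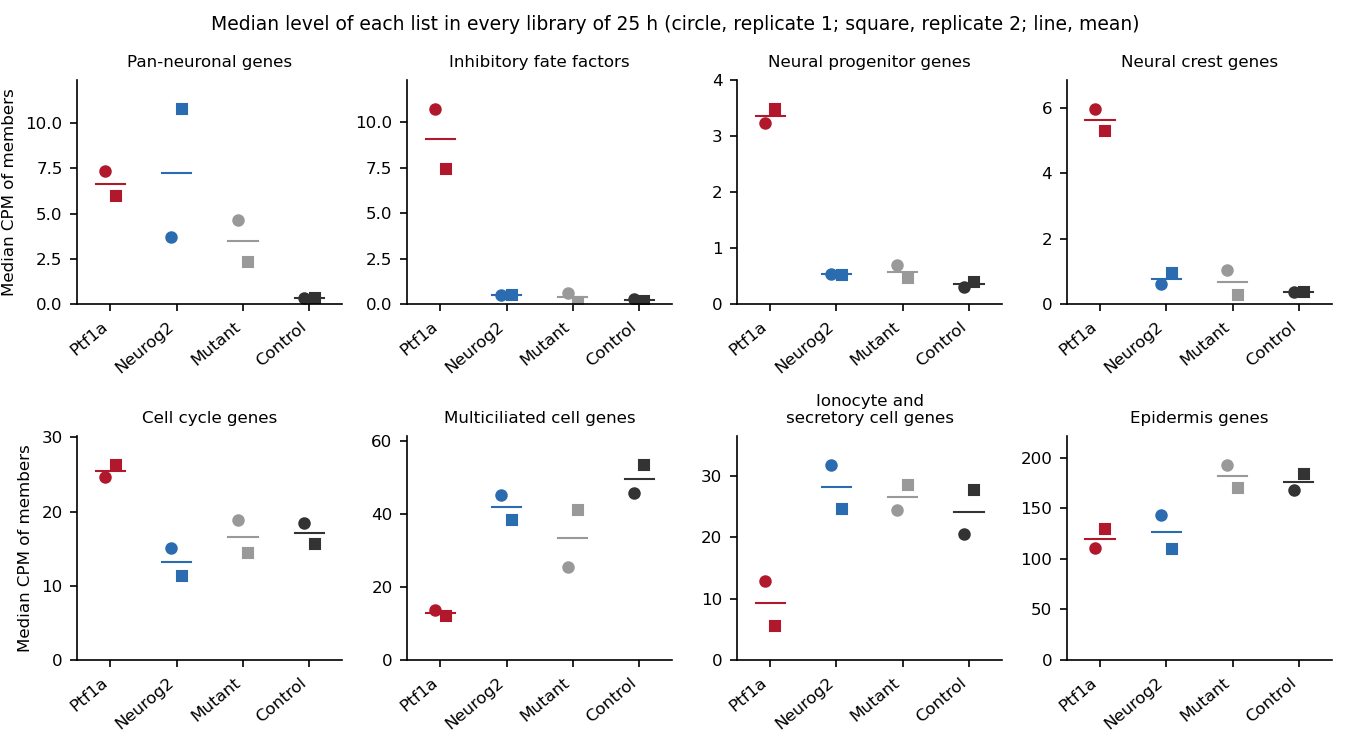
Median CPM of the tested members of 8 lists in every library of 25 h, on linear axes from 0, with a circle for replicate 1, a square for replicate 2 and a line for the mean of the 2 libraries. Pan-neuronal genes overlap between Ptf1a (7.34 and 5.94 CPM) and Neurog2 caps (3.69 and 10.8 CPM), while multiciliated genes are at 13.8 and 12.0 CPM in Ptf1a caps and at 38.2 CPM or above in Neurog2 and control caps.

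Neural crest genes were higher in 11 of 40 tested copies, from 7 genes, and lower in 1. These are 27.5% and 2.5%, against 5.13% and 4.19% of all genes. The median log2 fold change was 0.67, and 29 of the 40 had a log2 fold change above 0. The winged-helix gene foxd3.S had 0 counts in the Neurog2 caps and stood at 7.19 and 5.08 CPM in Ptf1a caps, at least 94.4-fold higher (against a floor of 3 fragments over both libraries). The second sox10 copy, sox10.S, stood at 32.8 and 34.1 CPM against 0.113 and 0.0476 CPM (8.63 ± 1.29, edgeR adjusted p = 0.00214), and sox9.L, also a gene of glial and placodal cells, at 50 and 77 CPM against 0.527 and 1.14 CPM (6.26 ± 0.589, edgeR adjusted p = 0.0003). The control caps held at most 0.225 CPM of sox9.L and 0.0796 CPM of sox10.S. Neither copy of the crest marker twist1 was called. The copy twist1.L stood at 3.01 and 2.61 CPM against 3.88 and 1.57 CPM (0.04, edgeR adjusted p = 0.986). The copy twist1.S stood at 1.01 and 0.724 CPM against 0.151 and 0 CPM (3.44, edgeR adjusted p = 0.115). The list count was 10 without Ptf1a replicate 1, 8 without Ptf1a replicate 2, 7 without Neurog2 replicate 1 and 8 without Neurog2 replicate 2, and the calls of foxd3.S, sox10 and sox9.L held in all 4 fits.

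Of 60 tested Hox and Cdx copies, genes of position along the body axis, 1 was higher and 5 lower (1.67% and 8.33%, against 5.13% and 4.19% of all genes), with a median log2 fold change of -1.14. Most members were low. Their median level was 0.430 and 0.0219 CPM in Ptf1a caps and 0.612 and 0.0952 CPM in Neurog2 caps. Replicates thus lay farther apart than the groups, which overlapped across replicate numbers. Replicate 2 had the lower median in both groups, and also in the control caps (0.808 and 0.398 CPM). Between libraries of the same number the Ptf1a median was the lower one. The caudal factor cdx2.L stood at 2.49 and 1.73 CPM in Ptf1a caps, 28.2 and 14.9 CPM in Neurog2 caps and 34.3 and 32.8 CPM in the control caps (-3.35 ± 0.608, edgeR adjusted p = 0.00574), and hoxa3.S at 2.06 and 2.08 CPM against 10.2 and 6.57 CPM (-2.02 ± 0.347, edgeR adjusted p = 0.00429). Without Ptf1a replicate 2 the call of cdx2.L was lost (0.0576), and leaving out each library left 0 higher members, and 2, 1, 2 and 2 lower ones without Ptf1a replicate 1, Ptf1a replicate 2, Neurog2 replicate 1 and Neurog2 replicate 2. Of 107 axon guidance copies 12 were higher and 4 lower (11.2% and 3.74%). The Eph receptor epha4.L stood at 30.5 and 29.2 CPM against 2.52 and 4.31 CPM (3.13 ± 0.317, edgeR adjusted p = 0.000369). The copies of the ephrin ligand efnb2 ran in opposite directions. The copy efnb2.S was not called, at 48.8 and 64.2 CPM against 12.6 and 39.8 CPM (1.11, edgeR adjusted p = 0.174). The copy efnb2.L was called lower, at 40.7 and 36.5 CPM against 110 and 96.4 CPM (-1.42 ± 0.212, edgeR adjusted p = 0.00208). The calls of epha4.L and efnb2.L held without each library, at log2 fold changes of 2.79 to 3.56 and -1.52 to -1.32. In each of these fits fewer than 12 axon guidance copies were called higher.

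Among the lists for cell types of larval skin, multiciliated cell genes had the largest share called lower. Of 75 tested multiciliated copies 44, from 37 genes, were lower in Ptf1a caps and 1 was higher. These are 58.7% and 1.33%, against 4.19% lower and 5.13% higher over all genes. The median log2 fold change of the 75 copies was -1.82. Their median level was 13.8 and 12 CPM in Ptf1a caps, 45.2 and 38.2 CPM in Neurog2 caps and 45.7 and 53.3 CPM in the control caps. The axonemal gene spag6.L stood at 22.2 and 22.6 CPM against 114 and 113 CPM in Neurog2 caps (-2.34 ± 0.341, edgeR adjusted p = 0.00194), and the groups did not overlap. The higher one, mybl2.S, is also a gene of the cell cycle and stood at 28.2 and 27.2 CPM against 13.7 and 12.42 CPM (1.08 ± 0.21, edgeR adjusted p = 0.00796), a call lost without Ptf1a replicate 1 and Neurog2 replicate 2 (0.05 and 0.0599). The lower count was 35 without Ptf1a replicate 1, 29 without Ptf1a replicate 2, 32 without Neurog2 replicate 1 and 38 without Neurog2 replicate 2.

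Ionocyte and small secretory cell genes were lower in 14 of 34 tested copies and higher in 4, with a median of -1.81. These are 41.2% and 11.8%, against 4.19% lower and 5.13% higher over all genes. The anion exchanger slc4a9.L stood at 6.91 and 2.2 CPM in Ptf1a caps and 32.2 and 25.7 CPM in Neurog2 caps (-2.67 ± 0.491, edgeR adjusted p = 0.0061). Among forkhead genes of the Foxi family, the ionocyte marker foxi1 lay lower in Ptf1a caps without being called. Its log2 fold changes were -1.97 (foxi1.L) and -2.30 (foxi1.S), at edgeR adjusted p = 0.0726 and 0.0753. The higher members were other genes of that family. Of these foxi2.L stood at 19 and 35.7 CPM against 3.54 and 2.33 CPM (3.22 ± 0.377, edgeR adjusted p = 0.000718) and foxi2.S at 13.1 and 15.8 CPM against 0.301 and 1.05 CPM (4.44 ± 0.597, edgeR adjusted p = 0.00128). These genes are expressed in early ectoderm and placodes as well. The lower count was 13 without Ptf1a replicate 1, 5 without Ptf1a replicate 2, 2 without Neurog2 replicate 1 and 13 without Neurog2 replicate 2, and replicates differed in this list as given above.

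Of 84 tested epidermis copies 5 were higher and 3 lower (5.95% and 3.57%), with a median of -0.38. Called or not, 21 of the 84 had a log2 fold change above 0. The lower count depended on the fit, with 9 for the 8 libraries of 25 h, 0 for the 4 libraries alone and 16 by DESeq2's Wald test. The simple-epithelium keratin krt18.S stood at 186 and 223 CPM in Ptf1a caps and 17.7 and 11.4 CPM in Neurog2 caps (3.82 ± 0.581, edgeR adjusted p = 0.00244), and krt19.S at 426 and 604 CPM against 114 and 110 CPM (2.21 ± 0.25, edgeR adjusted p = 0.000618), whereas krt19.S and krt19.L summed gave -0.25 (adjusted p = 0.56). The epidermal keratin krt12.L stood at 569 and 627 CPM against 1885 and 1033 CPM (-1.29 ± 0.267, edgeR adjusted p = 0.011), with the call lost without Ptf1a replicate 1 and Neurog2 replicate 1 (0.107 and 0.127). Cement gland genes, of the larval adhesive organ, were higher in 2 of 11 copies (18.2%), both of ag1. The call of ag1.L was lost without Neurog2 replicate 1 and without Neurog2 replicate 2 (0.0637 and 0.0704), while ag1.S stood at 153 and 181 CPM against 22.8 and 13.9 CPM (3.19 ± 0.467, edgeR adjusted p = 0.00196). The ag1.S level in the control caps was 37.7 and 51.5 CPM, between the groups. The epidermis list had 0 lower members without Ptf1a replicate 1 and without Neurog2 replicate 1, and 5 without Ptf1a replicate 2. Mesoderm, muscle and blood genes had 0 higher and 1 lower of 50 (2% lower), and endoderm genes 0 and 1 of 14 (7.14% lower). Of all genes 5.13% were higher and 4.19% lower. The endoderm list had 3 lower members without Neurog2 replicate 2.

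Dexamethasone was common to both groups. Glucocorticoid response genes gave 3 higher and 3 lower of 36 tested copies (8.33% each, against 5.13% and 4.19% of all genes). The higher members were both copies of zbtb16 and g6pc.L, which was low throughout, at 0.123 and 0.0658 CPM in Ptf1a caps and 0 counts in Neurog2 caps. Of the zinc finger gene zbtb16, zbtb16.L stood at 39.5 and 83.9 CPM in Ptf1a caps and 2.07 and 5.62 CPM in Neurog2 caps (4.01 ± 0.516, edgeR adjusted p = 0.00105) and zbtb16.S at 33.8 and 69.5 CPM against 1.17 and 3.24 CPM (4.56 ± 0.551, edgeR adjusted p = 0.000782). It is also a gene of neural progenitors. Without Ptf1a replicate 1, Ptf1a replicate 2, Neurog2 replicate 1 and Neurog2 replicate 2 the list had 2, 3, 2 and 2 higher and 0, 1, 0 and 2 lower members, and 7 lower ones with the 8 libraries of 25 h alone.

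**Figure D4:**
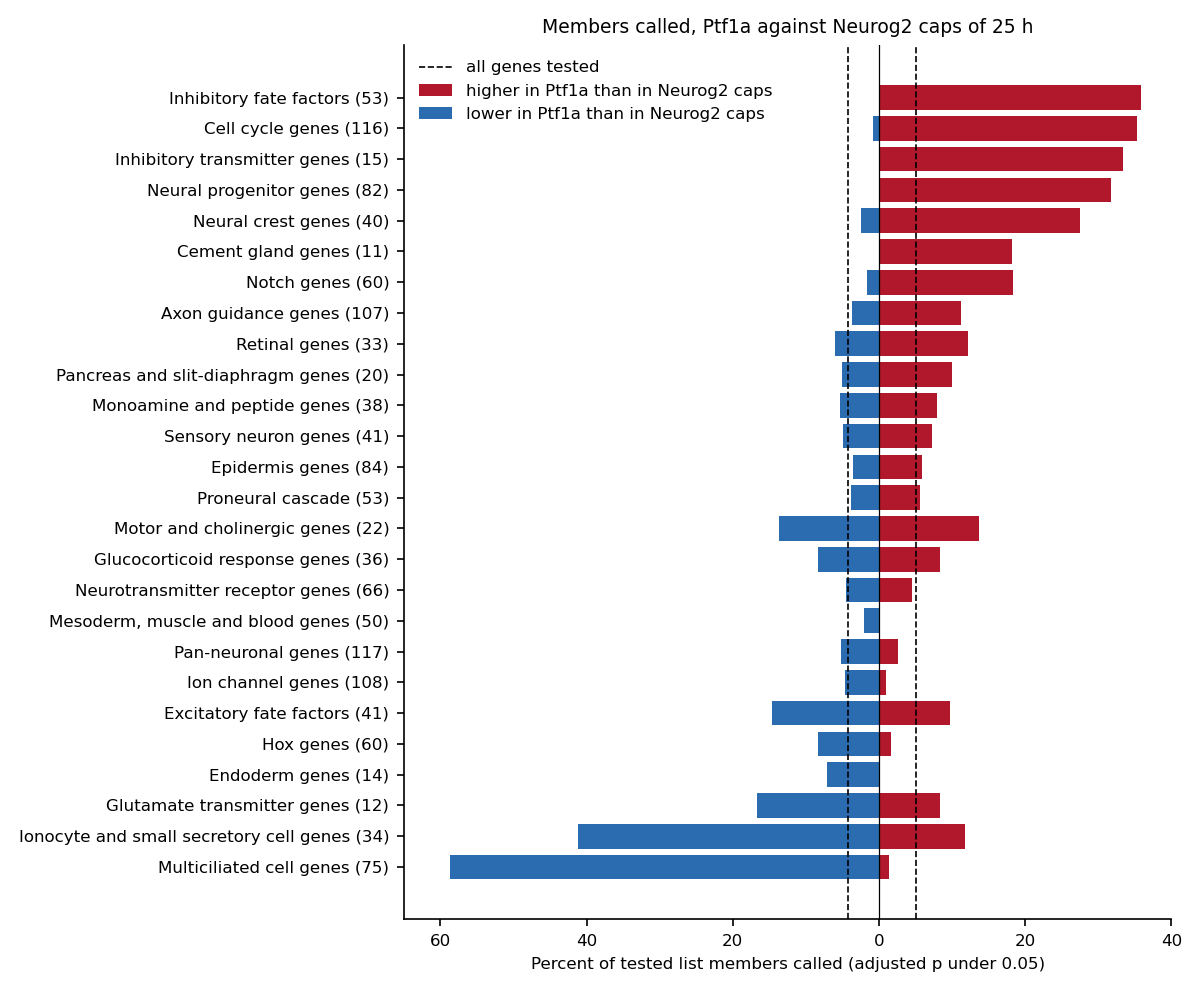
Percent of the tested members of each list called higher (red, to the right) and lower (blue, to the left) in Ptf1a than in Neurog2 caps, with the number of tested members in brackets and dashed lines at the shares over all genes, 5.13% and 4.19%. Inhibitory fate factors (35.8% higher) lie at one end and multiciliated cell genes (58.7% lower) at the other, while pan-neuronal genes and the proneural cascade lie near the dashed lines.

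Several of these differences were smaller or lay in the other direction at 6 h, by fitted values that were not tested on their own. The test of whether the difference between the caps was another one at 25 h than at 6 h called 275 genes higher and 358 lower at 25 h (0.905% and 1.18% of 30384). Leaving out single libraries lowered these counts, to 67 higher genes without Ptf1a replicate 2 of 6 h and to 76 lower ones without Neurog2 replicate 2 of 6 h. At 6 h gad1.1.L was at 0.0239 and 0.0244 CPM in Ptf1a caps and 0 and 0.048 CPM in Neurog2 caps. The lhx5.L difference was 0.30 on the log2 scale at 6 h and 7.06 at 25 h, a change of 6.77 ± 0.674 (edgeR adjusted p = 0.00127), and that of tlx3.S was 2.01 at 6 h and -6.93 at 25 h (a change of -8.94 ± 1.12, edgeR adjusted p = 0.00476). For skor1.L, pax8.L and tlx3.L the change was 6.98, 5.42 and -6.40 (edgeR adjusted p = 0.00417, 0.0157 and 0.0142). For gad1.1.L (5.72, edgeR adjusted p = 0.185) and slc17a7.L (-5.09, adjusted p = 0.0719) it did not pass.

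Other differences were of similar size at both times, prdm13.S among them. At 6 h prdm13.S already stood at 57.3 and 95.5 CPM in Ptf1a caps and 0.6 and 0.48 CPM in Neurog2 caps, and its difference, 7.13 on the log2 scale at 6 h and 6.39 at 25 h, gave a change between the times of -0.74 ± 1.29 that did not pass the test (edgeR adjusted p = 0.879). The copy prdm13.L stood at 13.9 and 26.6 CPM against 0.06 and 0 CPM at 6 h. Its fitted difference was not of similar size at both times, at 9.09 on the log2 scale at 6 h and less at 25 h. The prdm13.L change between the times, -3.69, did not pass the test (edgeR adjusted p = 0.326). Fitted differences at 6 h and 25 h were alike in isl1.S (-1.63 and -1.80) and lmx1a.L (4.46 and 4.80). Their changes between the times did not pass the test (edgeR adjusted p = 0.975 and 0.925).

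The highest and lowest changes between the times were taken among called genes with a mean above 1 CPM, 3 in each direction, from the copy with the smaller p and where ratios between single libraries did not overlap between the times. The larger changes of foxd3.S (11.50) and sox10.L (10.95) fell outside that choice, since foxd3.L had the smaller p and the 6 h ratio of sox10.L is taken over a Neurog2 library at 0. In dmbx1.L and sst.S the difference appeared at 25 h (change 10.62 ± 2.35 and 8.30 ± 1.67, edgeR adjusted p = 0.0406 and 0.0275). In tlx3.S the fitted difference was 2.01 at 6 h and -6.93 at 25 h, and in tlx3.L -0.25 and -6.65. The differences at 6 h were not tested on their own. In the globin gene hbg1.L and the hairy-related genes hes3.3.S and hes8.S the difference lay at 6 h. At that time hbg1.L stood at 0 and 0.0163 CPM in Ptf1a caps and 6.21 and 7.25 CPM in Neurog2 caps, and hes3.3.S at 8.36 and 6.73 CPM against 0.03 and 0 CPM, while hes8.S stood at 1.47 and 1.29 CPM against 0 and 0 CPM. At 25 h none of these 3 was called (edgeR adjusted p = 0.198, 0.295 and 0.957).

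**Figure D5:**
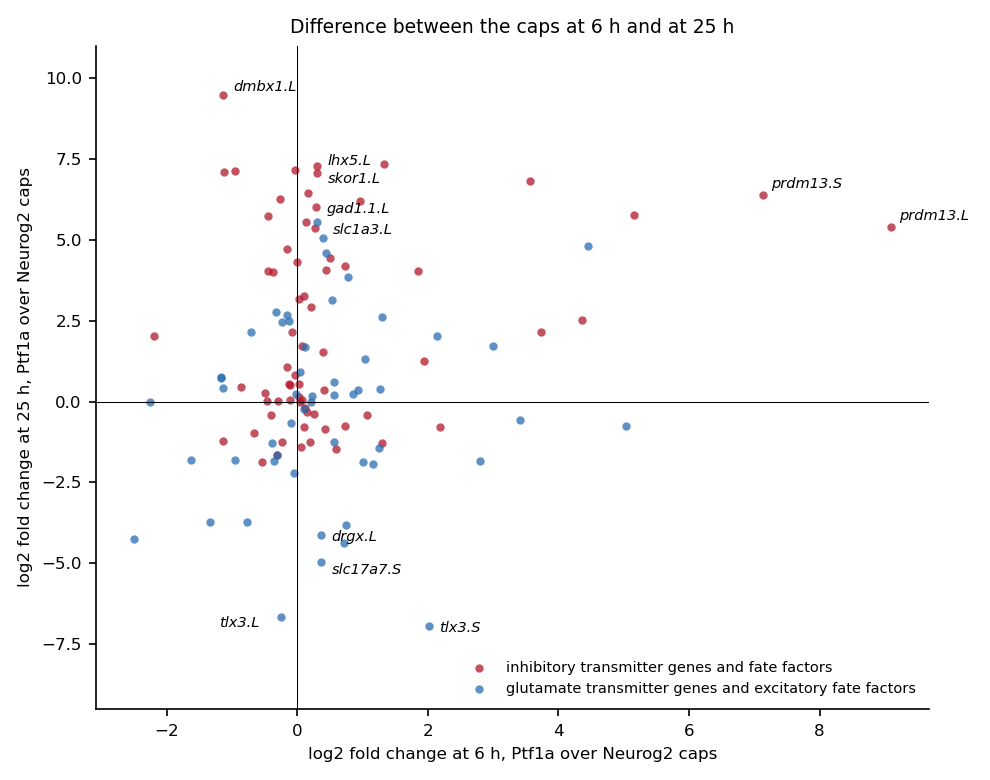
Fitted log2 fold change of Ptf1a over Neurog2 caps at 6 h (x axis) and at 25 h (y axis) for each tested member of the inhibitory (red) and excitatory (blue) lists. Most points lie in a vertical band around 0 at 6 h and spread at 25 h, from tlx3.S at -6.93 to dmbx1.L at 9.47, and both prdm13 copies lie far to the right.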

How the data were processed

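RNA-seq was done on Xenopus laevis animal caps, in 16 libraries of 8 groups with 2 libraries each. The deposited files hold raw counts per gene. Reads were processed with CASAVA 1.8, STAR 2.5, featureCounts and DESeq2 1.8, per the submitters' processing notes, and the strand setting and the handling of reads that map to several places are not given in the sources used here. Gene positions are from the deposited annotation of build 9.1, in which 41310 of 45038 genes matched 1 record.

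Counts were tested with edgeR 4.0.16 in R 4.3.3 (TMM scaling, filterByExpr, robust quasi-likelihood F-test, limma 3.58.1). The fit had 1 mean per group over all 16 libraries and 8 residual degrees of freedom, so the spread is shared by all groups, and 30384 of 45038 genes were tested. The common biological coefficient of variation was 0.3778. Benjamini-Hochberg adjustment ran over all tested genes, with calls at adjusted p under 0.05. The fit was tested on simulated data. No label states whether both libraries of a group came from different embryo batches, and p-values therefore measure only the spread between these samples, which may be technical. Between 14.4% and 19.5% of the values from 1 to 20 were odd in each library, so 2 counts were taken as 1 fragment in exact 95% intervals and in bounds, which use a floor of 3 fragments over a group. Intervals cover counting error only, and the sources used here mention no molecular identifiers that would mark PCR copies.

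The members and the 26 gene lists were chosen with earlier results of these data known. L and S copies count as separate members, and lists are described by counts and medians without a test of their own. Named genes were ptf1a and neurog2, the 8 highest and 8 lowest called genes with a symbol and a mean above 1 CPM, up to 4 called members per list and direction with groups that do not overlap, the transmitter genes and a set of fate factors whether called or not, and the 3 highest and 3 lowest genes of the test of time, under the conditions given beside them. Some genes that these rules name are not reported here. Other names given to complete a count of 5 or fewer were chosen after their values were seen. Alternatives were DESeq2 1.42.0 (size factors, and its Wald test), no filter on low counts, fits of fewer libraries, the replicate number as a block, summed homeologs, and leaving out each library.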

Additional observations from a re-analysis of the deposited data

Results flagged for a closer look

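The difference between Ptf1a and Neurog2 caps was itself another one at 25 h than at 6 h in the following genes, by the edgeR test of that change, on the log2 scale. The change was 10.62 ± 2.35 SE for dmbx1.L (adjusted p = 0.0406), 8.30 ± 1.67 for sst.S (adjusted p = 0.0275) and 8.05 ± 1.25 for hbg1.L (adjusted p = 0.0109). It was -10.25 ± 1.63 for hes3.3.S (adjusted p = 0.01), -9.80 ± 1.60 for hes8.S (adjusted p = 0.0164) and -8.94 ± 1.12 for tlx3.S (adjusted p = 0.00476). For dmbx1.L, sst.S, hbg1.L, hes3.3.S and hes8.S at least 1 library in the comparison held 0 counts at 1 of the times, so the size of the change depends on the prior count of 0.125.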

How the results depend on the processing

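Counts of genes higher and lower (1559 and 1273 as reported) were 799 and 828 with the 4 libraries alone and 2377 and 2607 with DESeq2's Wald test. The replicate number as a block gave 2578 and 2166. Blocks set within each time gave 3868 and 3635, and the 8 libraries of 25 h with the block gave 2199 and 2735. Same-numbered libraries of the Ptf1a and Neurog2 groups of 25 h deviated together (correlation 0.33 across genes). Over pairs of groups the correlation was 0.201 to 0.370 within 25 h, 0.617 to 0.697 within 6 h and 0.125 to 0.239 between the times. No label ties the libraries, so the main fit took the numbers as names only. A block over all libraries draws on every group. If same-numbered libraries are pairs, the main fit leaves that pairing out. For the change between the times (275 and 358) the counts were 178 and 182 with the 8 Ptf1a and Neurog2 libraries, 574 and 810 with the replicate block, 1264 and 2002 with the block within time, and 988 and 954 with the Wald test. Inhibitory transmitter genes had 8 higher members with the block within time and 8 with the 8 libraries and block. Lower members of that list, 0 as reported, were 1 in each fit with a block and 1 by the Wald test. Cell cycle genes had 25 (4 libraries), 65 (block), 79 (block within time) and 69 (8 libraries with block), and excitatory fate factors 10 lower and 9 higher (block within time). With homeologs summed, where an L and S pair counts once, inhibitory fate factors had 10 higher members. The 19 higher copies as reported came from 11 genes. Lower inhibitory fate members, 0 as reported, were 3 with the block within time and 5 with the 8 libraries and block, and lower neural progenitor members, also 0, were 1 with the block, 3 with the block within time and 5 with the 8 libraries and block. Lower epidermis members (3) were 7, 19 and 20 in those fits, and lower glucocorticoid response members (3) 5, 10 and 8. Leaving out each library, which leaves 1 library assumed to vary like the other groups, gave 554 to 1072 higher and 458 to 798 lower genes, 67 to 200 and 76 to 258 for the change between times, and 2 to 4 inhibitory transmitter, 11 to 15 inhibitory fate, 3 to 6 lower excitatory fate, 22 to 35 cell cycle and 29 to 38 lower multiciliated members. With homeologs summed neurog2.L turned to 0.02 and krt19.S to -0.25. Among genes that were not called, leaving out a library gave -2.64 to 0.14 for pou4f1.2.S, -2.04 to 0.53 for neurod1.L, -0.27 to 1.94 for neurog1.L (-0.01 without Ptf1a replicate 2) and -0.07 to 2.19 for ebf2.L, the signs turning without a Neurog2 library except where given. The cause of these shifts was not tested. Of 115 called genes examined one by one, 57 were called without each library, 114 with DESeq2 size factors and 100 with the 4 libraries alone. At this depth a gene with 0 counts in a group is not shown to be absent.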

Other observations

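Families of signalling and ciliary transport genes also held called members, counted by the start of their symbols and, with the genes named here, chosen after their values were seen. Of 27 fgf copies 6 were higher in the Ptf1a caps, of 35 wnt copies 5 were higher, and of 19 bmp copies 5 were higher and 3 lower, where 5.13% of all genes tested were higher and 4.19% lower. The retinoic acid hydroxylase cyp26c1.L, which breaks retinoic acid down, stood at 348 and 281 CPM in Ptf1a caps and 3.05 and 5.43 CPM in Neurog2 caps (log2 fold change 6.22 ± 0.827 SE, edgeR adjusted p = 0.00127). The growth factor fgf8.L stood at 6.93 and 4.803 CPM against 0.376 and 0.0476 CPM (4.74, edgeR adjusted p = 0.00854), and the Wnt ligand wnt11b.L at 13.3 and 13.1 CPM against 0.904 and 0.904 CPM (3.86). The ligand wnt8b.L had 0 counts in the Neurog2 caps and was at least 17.04-fold higher with Ptf1a. The call of wnt11b.L was lost without Neurog2 replicate 1 and without Neurog2 replicate 2 (edgeR adjusted p = 0.0891 and 0.0707), and that of wnt8b.L without Neurog2 replicate 1 (0.0537). On the lower side, bmp7.1.S stood at 22.02 and 35.2 CPM against 101 and 72.7 CPM (-1.60, edgeR adjusted p = 0.00397). Of 18 ift copies, genes of transport in cilia of which some stand in the list of multiciliated cells, 11 were lower, and ift122.L stood at 29.5 and 26.4 CPM against 90.0 and 81.9 CPM (-1.62). The calls of cyp26c1.L, fgf8.L, bmp7.1.S and ift122.L held without each of the 4 libraries.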
